A study of Mus musculus with 6 samples.

Results

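The AP-1 and immediate early genes described here are Fos, Fosb, Fosl2, Jun, Junb, Jund, Ier2, Gadd45b, Btg1 and Btg2, chosen by name. Every probe whose platform annotation gives a single symbol on that list was taken, which gave 18 probes for 10 genes out of 45037 non-control probes and 18193 genes. RNA was measured on 6 arrays, 2 per stage, from mouse thymocytes sorted at 3 stages of development: DP cells, which carry CD4 and CD8, CD4intCD8+ cells, on which CD4 is intermediate, and CD8SP cells, which carry CD8 alone. All 3 groups came from mice aged 5 to 6 weeks that were RAG-2-/- and N15 TCR tg+/+ on an H-2b background, so every thymocyte could carry the transgenic receptor and none could rearrange receptor genes of its own. Per the labels, 6 mice matched for age and sex were sorted by flow cytometry in 2 independent experiments, and 2 µg of total RNA went into each labelling. The labels tie no array to particular animals, so p-values reflect only array-to-array spread, which may be technical, and mice may have been pooled.

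AP-1 is a family of leucine-zipper transcription factors that bind DNA as dimers of a Jun protein with a Fos, Jun or related protein. Fos, Fosb, Jun, Junb and Ier2 are immediate early genes: their transcription starts within minutes of a stimulus, without new protein synthesis, and their RNAs decay quickly. In T cells AP-1 acts downstream of the T cell receptor together with NFAT, and the same genes also respond to tissue dissociation and other handling. Btg1 and Btg2 are anti-proliferative adaptors that recruit the CCR4-NOT deadenylase and are abundant in resting lymphocytes.

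Array medians lay between 24.9 and 25.7 intensity units, and 2.78% to 4.33% of values per array lay under 0. Of 10 tested thymocyte identity genes, 5 were called lower in CD4intCD8+ than in DP cells (4.84% of all genes tested were), and 0 were called higher. Rag1 fell from 1046 and 1054 in the DP arrays to 101 and 134 in the CD4intCD8+ arrays. Rag2 read 137 and 193 in DP cells, then 14.8 and 30.1. Why a Rag2 signal was seen in RAG-2-/- mice was not tested. Cd8a also fell, from 3153 and 3566 in DP cells to 2361 and 1481, then 1794 and 1608 in CD8SP cells. The call for its fall to CD4intCD8+ cells (log2 -0.84, adjusted p 0.0215) was lost in 4 alternatives. Cd4, which was too dim on average to be tested, read 351 and 515, then -33.0 and 11.8. For other cell types, summed over the 10 myeloid and dendritic markers on the array, intensity was 309 and 339 in DP, then 463 and 537, then 528 and 716 on the CD8SP arrays (the sum was not tested). Of these markers 6 were tested, and all 6 had a positive log2 change from DP to CD8SP. The 3 called higher were the MHC class II genes Cd74, H2-Ab1 and H2-Aa, where 19.8% of all genes were called in either direction. H2-Aa lost its call without DP replicate 1, DP replicate 2 or CD8SP replicate 2, and H2-Ab1 with the mean of its probes (adjusted p 0.111). The macrophage and dendritic markers Cd68, Cd14 and Itgax lay between 3.10 and 31.9, Csf1r between 61.5 and 84.0 and Adgre1 between 38.3 and 61.6. Itgam, too dim to be tested, read 11.9 and 15.9 in DP cells, then 26.2 and 26.5, then 16.6 and 20.9, and Lyz2 22.3 and 32.5, then 33.1 and 69.2, then 20.3 and 40.4. From DP to CD4intCD8+ 2 of the 6 were called higher (Cd74 and H2-Ab1, the latter lost in 7 alternatives), against 6.86% of all genes. With the replicate number in the fit 4 were (also H2-Aa and Lyz2, the latter at an adjusted p of 0.0479). The thymocyte identity genes called lower then went from 5 to 8, while 23.5% of all genes were called in either direction. The 5 B cell markers summed to between 154 and 331. Whether such cells had a part in the changes below was not tested, and in bulk RNA fewer cells of a type and less RNA per cell cannot be told apart.

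The promoters of Btg2, Fos, Jun and Junb are shown because some searched motifs are known entry points of signals that induce these genes. Jun was not called by stage as a gene. Jund and Fosl2, for which a probe was called by stage, are not shown. RefSeq windows of 300 bases (250 before and 50 after the start, build GRCm38.p6) were matched for 9 of the 10 members, all but Ier2, and both strands were searched. The 200 bases that end just before the start follow, 5′ to 3′ on the gene's own strand, with every match to a searched motif in capitals.
Btg2, chr1:134079156-134079355, minus strand: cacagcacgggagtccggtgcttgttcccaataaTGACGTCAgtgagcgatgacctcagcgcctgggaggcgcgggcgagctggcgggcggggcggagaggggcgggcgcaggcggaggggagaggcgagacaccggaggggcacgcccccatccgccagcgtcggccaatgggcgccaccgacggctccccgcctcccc
Fos, chr12:85473690-85473889, plus strand: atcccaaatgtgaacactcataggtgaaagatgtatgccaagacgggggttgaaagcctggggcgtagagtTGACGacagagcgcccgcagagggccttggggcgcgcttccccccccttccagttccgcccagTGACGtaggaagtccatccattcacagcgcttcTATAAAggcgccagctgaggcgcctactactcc
Jun, chr4:95052223-95052422, minus strand: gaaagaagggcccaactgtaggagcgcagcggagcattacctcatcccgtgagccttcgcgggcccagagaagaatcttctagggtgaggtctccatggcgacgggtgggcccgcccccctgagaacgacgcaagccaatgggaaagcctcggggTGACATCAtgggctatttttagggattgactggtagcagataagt
Junb, chr8:84978749-84978948, minus strand: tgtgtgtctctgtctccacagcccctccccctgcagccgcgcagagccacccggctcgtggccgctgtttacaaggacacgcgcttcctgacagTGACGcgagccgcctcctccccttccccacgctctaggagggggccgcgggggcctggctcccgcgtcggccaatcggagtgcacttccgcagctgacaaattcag

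The capitals in Btg2 are TGACGTCA, the full cyclic AMP response element, whose first base lies 166 bases before the start. It was in 1.79% of 32851 promoter windows and in 1 of the 9 members' windows. The capitals in Jun are TGACATCA, a variant of that element, 45 bases before the start (3.62% of windows, 1 of 9 members). Fos has the shorter TGACG, which is also contained in TGACGTCA, at 129 and 66 bases before the start, and a TATA box (TATAAA) at 33. Junb has TGACG at 106, and its TATAAA begins at base 1 after the start, beyond the stretch shown. TGACG was in 20.8% of all windows and in those of 5 members (Btg1, Btg2, Fos, Fosb and Junb), and TATAAA in 13.6% and in those of 4 (Btg1, Fos, Gadd45b and Junb). The classical AP-1 site TGACTCA (5.2% of windows) and the CArG box of serum response factor (1.63%) were in 0 of the 9 members' windows, which says only that these letters are not in this stretch.

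Fos, the founding member of the Fos family and a dimer partner of Jun proteins, had the largest standard error of the 8 members tested by stage. Its probe 1423100_at gave 482 and 44.9 in DP replicates 1 and 2, 411 and 110 at the intermediate stage and 374 and 132 in CD8SP cells; pairs of values are given in this order, replicate 1 before replicate 2, throughout. All 3 arrays numbered 1 were above all 3 arrays numbered 2, and the stages overlapped completely. The stage means were nearly level at 264 ± 309 in DP, 261 ± 213 in CD4intCD8+ and 253 ± 171 in CD8SP cells (SD, n = 2 each). The limma fit with stage as its only term gave a log2 change of 0.48 ± 0.95 (SE) from DP to CD4intCD8+ with an adjusted p of 0.786, and the 95% interval, from -1.68 to 2.64, allows a large change in either direction; with the replicate number in the fit it was 0.48 ± 0.32 (adjusted p 0.313), with an interval from -0.23 to 1.19. Within replicate 1 Fos was lower in CD4intCD8+ than in DP cells (log2 -0.23), and within replicate 2 it was higher (1.19).

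**Figure D1:**
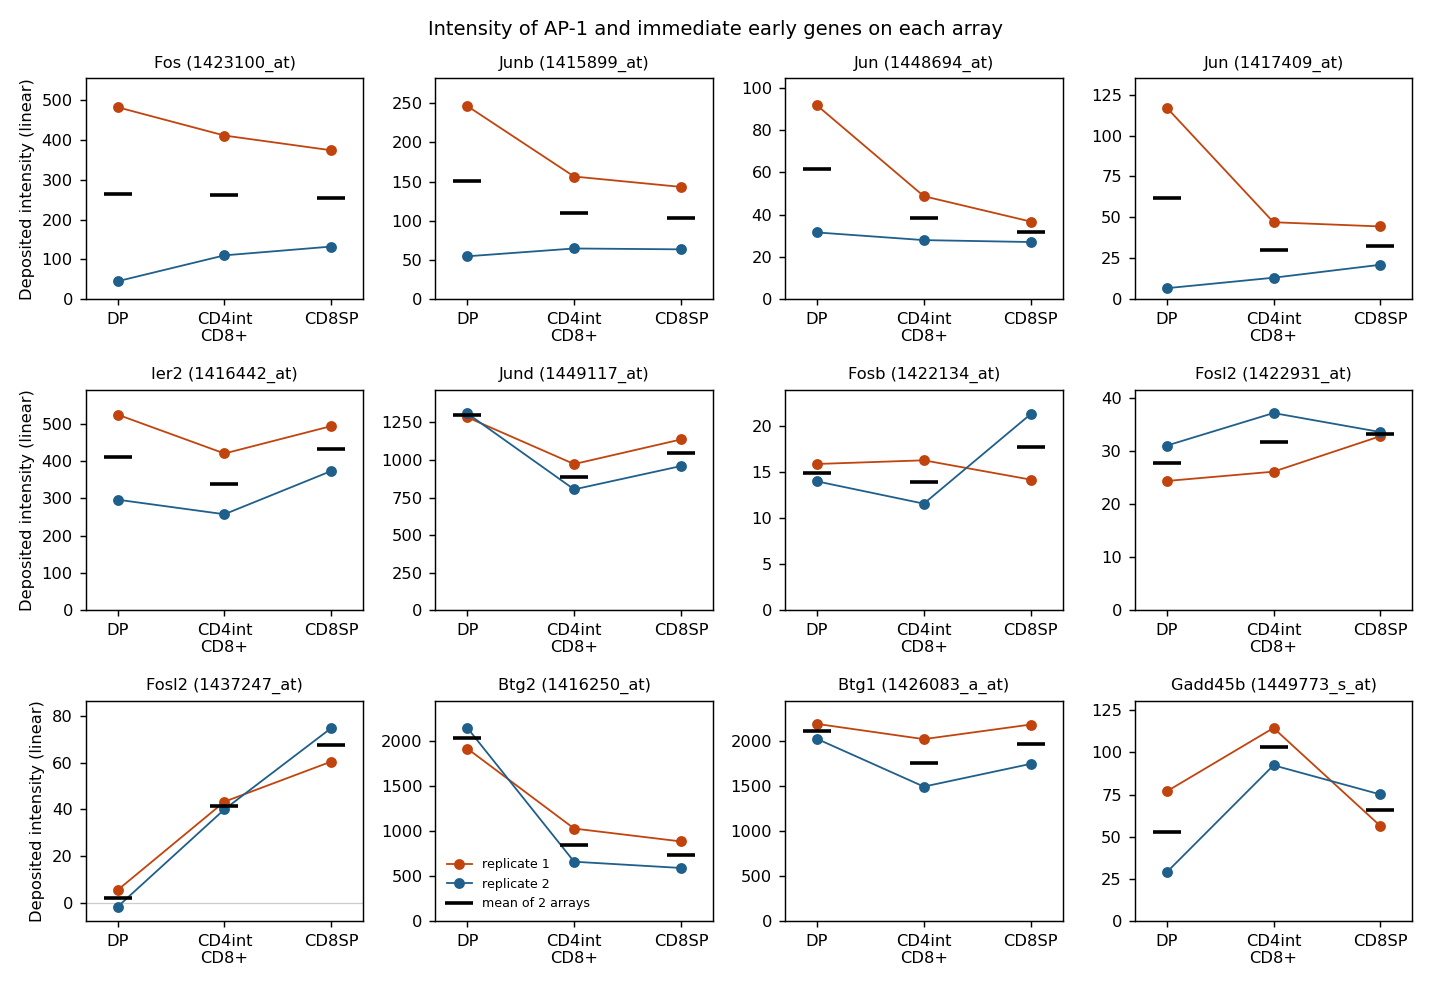
Deposited intensity (linear, vertical axis) of selected member probes on the 6 arrays, by stage (horizontal axis); lines join the arrays of the same replicate number, and panels have their own scales. For Fos, Junb, Jun and Ier2 the replicate 1 line lies above the replicate 2 line at all 3 stages, while Btg2 falls along both lines after the DP stage.

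Fosb, a close relative of Fos that is induced with it, was dim throughout. Its probe 1422134_at lay between 11.6 and 21.3 on the 6 arrays, under the filter that a gene's mean log2 value exceed 5.19 (an intensity of 30.8), and without that filter it was called in no comparison of stages.

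Fosl2, which encodes Fra-2, gave different answers from its 2 probes. Probe 1437247_at read 5.42 and -1.74 in the DP arrays, 43.3 and 40.03 in the CD4intCD8+ arrays and 60.5 and 74.9 in the CD8SP arrays, with no overlap between any stages. In the limma fit over 27022 probes it was called higher in CD4intCD8+ than in DP cells (adjusted p 0.00554). From DP to CD8SP cells it was also called higher (adjusted p 0.000552). Both calls held under the 15 probe-level alternatives in which this probe was tested, where brighter member probes were tested in 16. Its mean log2 value (4.93) passed the probe filter (4.52) only through the later stages, since its DP values were 3.49 and 2.55. Passing the filter was therefore not independent of these calls. Because the DP values lie around 0, the fitted log2 change depends on the constant added before taking logs (4.07 with 1 and 1.27 with 25 for the first step), so no fold is given. Probe 1422931_at read 24.4 and 31.0, then 26.1 and 37.2, then 32.8 and 33.6; its DP and CD4intCD8+ arrays overlapped, and it was not called. Its mean log2 value, higher than that of the other probe (4.93), made it stand for the gene, which fell just under the filter (5.186 against 5.194). The annotation used here does not say which transcripts each probe detects.

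Junb, a Jun protein that in T cells is induced by receptor signals, resembled Fos in its order of arrays. Its probe 1415899_at read 247 and 54.7 in DP cells, 157 and 64.7 at the intermediate stage and 143 and 63.6 in CD8SP cells, again with every replicate 1 array above every replicate 2 array. From DP to CD4intCD8+ cells the fitted log2 change was -0.21 ± 0.63 (adjusted p 0.861), the mean of a lower value in replicate 1 (-0.64) and a higher one in replicate 2 (0.22).

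Jun, the main dimer partner of Fos, was seen by a pair of probes, each with its 3 replicate 1 arrays above its 3 replicate 2 arrays. Probe 1448694_at, which represented the gene, read 91.8 and 31.6 in DP cells, 48.8 and 28.0 at the intermediate stage and 36.7 and 27.0 in CD8SP cells. Probe 1417409_at read 117 and 6.68, then 47.0 and 13.1, then 44.4 and 21.0. The DP replicate 1 array was the highest of the 6 for both. The log2 change from DP to CD8SP was -0.69 ± 0.42 for the gene (adjusted p 0.287). It rested on DP replicate 1: without that array the change was 0.00 (-0.000389), and without DP replicate 2 it was -1.38 (adjusted p 0.0499).

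Jund, the Jun protein that is expressed without a stimulus in most cells, was brightest in DP cells. Probe 1449117_at read 1284 and 1309 in DP cells, 972 and 804 at the intermediate stage and 1136 and 959 in CD8SP cells, so the DP arrays lay above the other 4. The log2 change from DP to CD4intCD8+ was -0.55 ± 0.13 (adjusted p 0.0262). The call was lost with an adjusted p of 0.114, 0.119 or 0.156 when DP replicate 1, DP replicate 2 or CD4intCD8+ replicate 2 was left out, and of 0.343 with a covariate for RNA quality, the actin 3′ to 5′ signal ratio of each array; it was also lost without the intensity trend in limma's variance model. From DP to CD8SP cells the change was -0.31 ± 0.13, with an adjusted p of 0.12 that became 0.0334 with the replicate number in the fit. A dim second probe, 1440265_at, read 12.6 and 24.1, then 24.7 and 35.4, then 24.5 and 27.1, so that it was higher after the DP stage (log2 0.60, adjusted p 0.288); the probes disagree in direction, and their mean changed by 0.023 (adjusted p 0.95).

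Ier2, an immediate early gene that encodes a small nuclear protein, had probe 1416442_at at 524 and 296 in DP cells, 420 and 257 at the intermediate stage and 494 and 373 in CD8SP cells. Replicate 1 was the higher array at each of the 3 stages, and no stage stood apart. The log2 changes were -0.26 ± 0.29 from DP to CD4intCD8+ (adjusted p 0.608) and 0.12 from DP to CD8SP.

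Gadd45b, a stress-induced activator of p38 and JNK kinase cascades, was highest at the intermediate stage. Its probe 1449773_s_at read 76.9 and 29.0 in DP cells, 114 and 92.4 at the intermediate stage and 56.4 and 75.1 in CD8SP cells; both CD4intCD8+ arrays lay above the other 4. The log2 change from DP to CD4intCD8+ was 1.02 ± 0.35, with an adjusted p of 0.091 in the stage fit and 0.0321 (SE 0.30) with the replicate number added. At probe level with that number the change was not called (adjusted p 0.0506). Its size depends on the DP arrays: the change was 1.64 (adjusted p 0.0268) without DP replicate 1 and 0.39 without DP replicate 2. From DP to CD8SP it was 0.40 ± 0.35, with 1.03 (adjusted p 0.0451) without DP replicate 1 and -0.22 without DP replicate 2. Probe 1450971_at (62.3 and 56.4, then 94.4 and 64.6, then 53.4 and 69.4) overlapped between CD4intCD8+ and CD8SP, and 1420197_at stayed between 6.17 and 25.3.

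Btg2 fell after the DP stage. Probe 1416250_at read 1912 and 2142 in DP cells, 1027 and 660 at the intermediate stage and 885 and 591 in CD8SP cells. Probe 1448272_at read 983 and 1282, then 584 and 580, then 448 and 471. With either probe the DP arrays were above the other 4. The gene fell by 1.29 ± 0.22 on the log2 scale from DP to CD4intCD8+ (adjusted p 0.0105) and by 1.48 ± 0.22 from DP to CD8SP (adjusted p 0.00244), and once the replicate number was added the adjusted p-values were 0.000495 and 9.1e-05. The second probe alone fell by 0.94 (adjusted p 0.0086) and 1.28 (adjusted p 0.0007). The fall to CD8SP was called under every alternative run (adjusted p 8.2e-05 to 0.0312). The fall to CD4intCD8+ was no longer called when DP replicate 1 (adjusted p 0.0576) or DP replicate 2 (0.0749) was left out, or when the actin ratio entered as a covariate (log2 -0.74, adjusted p 0.0512). That ratio moved with stage: the DP arrays had 1.98 and 2.14, the CD4intCD8+ arrays 2.37 and 3.47, and the CD8SP arrays 2.28 and 2.62.

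Btg1, the paralog of Btg2, was bright at all stages. Probe 1426083_a_at read 2193 and 2026 in DP cells, 2023 and 1496 at the intermediate stage and 2185 and 1749 in CD8SP cells, and 1437455_a_at read 1293 and 868, then 999 and 777, then 1140 and 981. The log2 change from DP to CD4intCD8+ was -0.28 ± 0.15, with an adjusted p of 0.267 in the stage fit and 0.0402 with the replicate number. With that number but without the filter the adjusted p was 0.0758, and at probe level it was 0.0566. Probe 1442018_at had wider gaps between the replicates: it read 184 and 47.5, then 104 and 34.3, then 100.1 and 40.6, with every replicate 1 array above every replicate 2 array, an order that 1437455_a_at also had.

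Over the 8 members that passed the filter, the stage fit called 2 lower in CD4intCD8+ than in DP cells (Btg2 and Jund) and 0 higher, against 11.7% of all 10916 genes tested that were called (4.84% lower and 6.86% higher). From CD4intCD8+ to CD8SP cells limma called 0 members, and 0 had an unadjusted p under 0.05, where 0.119% of genes were called. From DP to CD8SP cells 1 was called (Btg2, lower), against 19.8% of genes and 8.35% called lower. At the level of probes, 4 of the 16 above the probe filter were called in the first step (1437247_at of Fosl2, both Btg2 probes and 1449117_at of Jund; 5.74% of all probes), and 3 over the whole span (the same without Jund; 11.2%). The Fosl2 probe passed that filter only through the stages where it was high, so its calls are no independent support in these counts. The F test over the 3 stages called Btg2 (adjusted p 0.00496) and Jund (0.0427), against 15.2% of genes. With the replicate number in the fit, 4 members were called in the first step (Btg2, Jund and Btg1 lower, Gadd45b higher; 23.5% of genes), 0 in the second (2 at an unadjusted p under 0.05, Ier2 and Jund; 2.08% of genes called) and 2 over the whole span (Btg2 and Jund; 30% of genes). Arrays of DP and CD4intCD8+ did not overlap, with DP higher, for 3 members (Btg2, Jund and Btg1) against 27.9% of genes, so that a lack of overlap between 2 arrays and 2 is common here. The median member changed by -0.27 on the log2 scale in the first step and by -0.19 over the whole span, beside 0.01 and 0.01 for all genes tested.

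**Figure D2:**
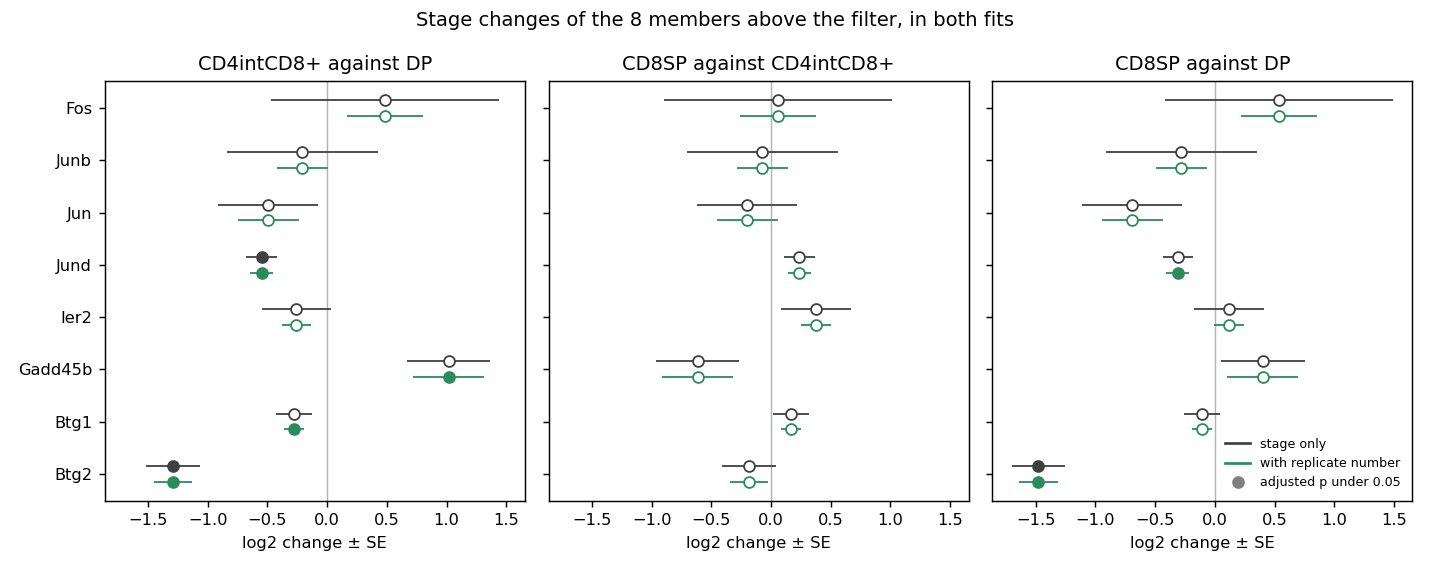
Log2 change with its standard error (horizontal axis) of the 8 members above the filter, for the 3 comparisons of stages; dark points come from the fit with stage alone, green points from the fit that adds the replicate number, and filled points have an adjusted p under 0.05. Btg2 lies far left of 0 in both comparisons with DP, while the wide bars of Fos, Junb, Jun and Ier2 shrink once the replicate number is added.

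The difference between the arrays numbered 1 and those numbered 2 was estimated in the same fit with the replicate number, averaged over the 3 stages; this comparison was added after the values had been seen. Fos was 2.19 ± 0.26 higher on the log2 scale in replicate 1 (adjusted p 0.00562), the highest of 10916 genes. Junb was 1.46 ± 0.17 higher (adjusted p 0.00562, rank 4), and Ier2 0.63 ± 0.10 higher (adjusted p 0.0201, rank 94). These are 3 of the 8 members tested, against 1.47% of all genes (161 genes) called in either direction and 0.934% called higher in replicate 1. Jun was 0.82 ± 0.21 higher (adjusted p 0.0888) and Btg1 0.29 higher (0.0726); Btg2, Jund and Gadd45b differed by 0.35, 0.16 and 0.39, with adjusted p-values of 0.217 to 0.459. At the level of probes, Jun 1417409_at (1.89 ± 0.37, adjusted p 0.0495) and Btg1 1442018_at (1.49 ± 0.15, adjusted p 0.00378) were called as well, which makes 5 of 16 member probes against 0.818% of all probes.

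For Fos, Junb, Jun and Ier2 the gap between the replicates was largest in DP and smallest in CD8SP cells. For Fos it was 3.26 in DP, 1.85 in CD4intCD8+ and 1.46 in CD8SP cells on the log2 scale, and for Junb 2.06, 1.20 and 1.10. The linear ratio of replicate 1 to replicate 2 for Fos was 10.7 in DP and 2.83 in CD8SP cells. Jun (1.38, 0.69 and 0.37), Ier2 (0.81, 0.70 and 0.40), Btg1 1442018_at (1.84, 1.45 and 1.19) and Btg1 1437455_a_at (0.57, 0.36 and 0.22) had the same order. The probes standing for Btg1 (0.11, 0.43 and 0.32), Btg2 (-0.16, 0.63 and 0.58) and Jund (-0.03, 0.27 and 0.24) had their lowest value in DP cells, and Gadd45b went from 1.25 to 0.29 and -0.38. With 1 array per stage and replicate number, a difference in the gap between stages cannot be tested. Higher values in replicate 1 at all 3 stages were found for 5 of the 8 members against 18.1% of genes, and by more than 0.5 at all 3 stages for Fos and Junb, against 0.431% of genes.

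**Figure D3:**
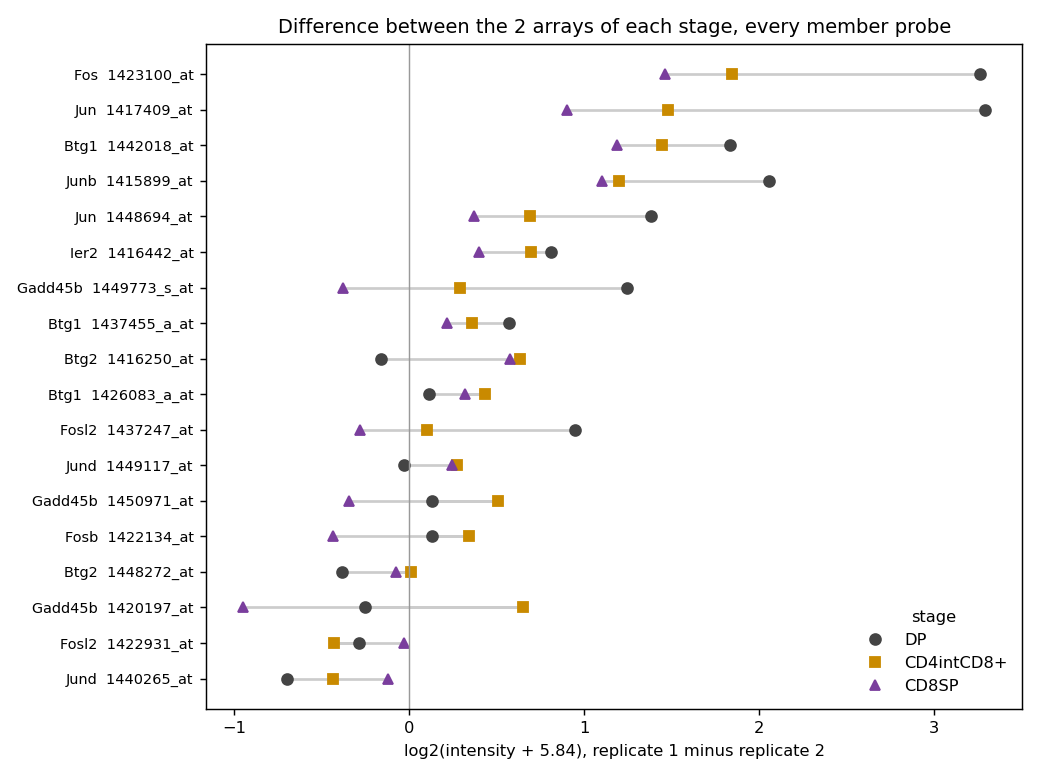
Log2 difference, replicate 1 minus replicate 2, of each member probe (vertical axis) within each of the 3 stages (horizontal axis; marker colours give the stage, and 0 means no difference). Fos, Junb, Ier2, both Jun probes and Btg1 1442018_at lie to the right of 0 at all stages with the DP point farthest out, whereas both Btg2 probes have points on either side of 0.

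The calls by replicate number depend on how the spread is estimated. Without the intensity trend in limma's variance model 0 genes were called (1600, with 5 of the members, at an unadjusted p under 0.05), and Fos, Junb and Ier2 had adjusted p-values of 0.139, 0.134 and 0.183. When either CD8SP array was left out Fos was still called, but Junb and Ier2 were not. Both of these fits are the same check, since the CD8SP array left over is fitted by its own stage term. Each takes the replicate difference from the DP and CD4intCD8+ arrays alone. Fos, Junb and Ier2 were still called when the actin ratio, which was higher in replicate 2 at each stage, was added as a covariate.

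**Figure D4:**
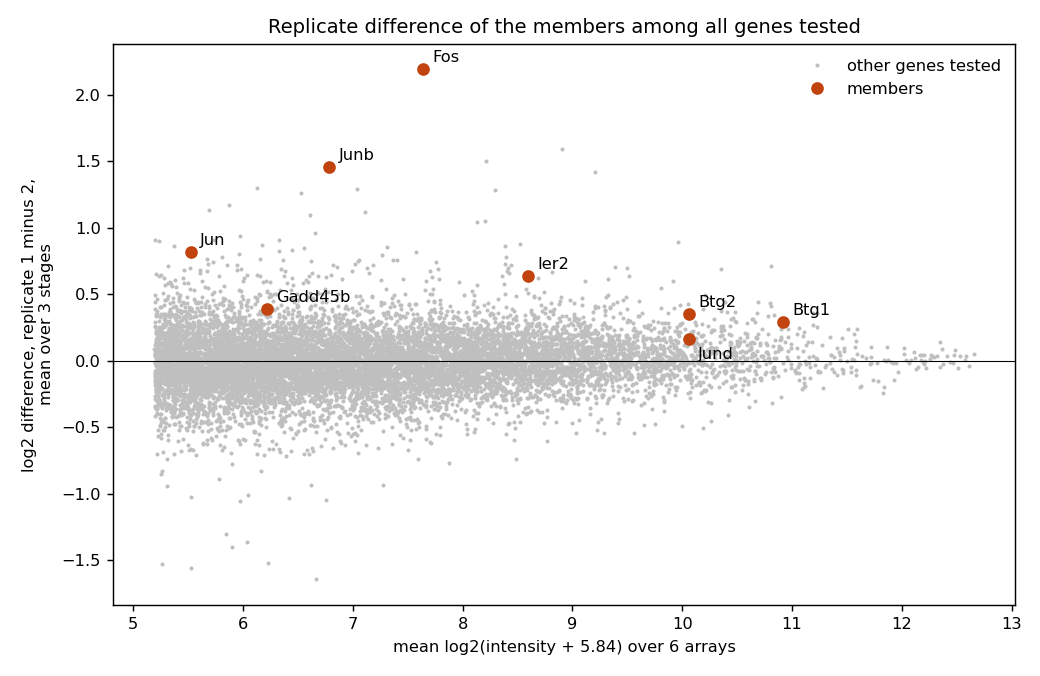
Log2 difference, replicate 1 minus replicate 2, averaged over stages (vertical axis) against mean log2 expression (horizontal axis) for the 10916 genes tested; members are marked by name. Fos, at 2.19, is the highest point, and Junb, at 1.46, stands out from the cloud, whereas Btg2 and Jund lie near the rest of the genes.

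Genes outside AP-1 differed between the replicates by similar amounts. Erdr1, at rank 2, read 917 and 248 in DP cells, 726 and 239 at the intermediate stage and 845 and 333 in CD8SP cells. Slc15a2, an oligopeptide transporter (rank 3), was 1.50 ± 0.14 higher in replicate 1, and Xist, the RNA that silences an X chromosome (rank 5), 1.42 ± 0.17 higher (adjusted p 0.00562). Ifit1, an interferon-induced gene, was 1.12 higher. What part differences in animals, in RNA or in handling between the arrays had in this was not tested.

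Among 24 other immediate early genes tested, 5 were called higher in replicate 1 and 0 lower. Of all genes tested, 0.934% were called higher in replicate 1 and 1.47% in either direction. Of the 24, 22 were positive, with a median log2 difference of 0.26 beside -0.01 for all genes. Dusp1, a phosphatase that switches off MAP kinases, read 725 and 269 in DP cells, 395 and 209 at the intermediate stage and 257 and 141 in CD8SP cells (1.05 ± 0.12, adjusted p 0.00562). The other 4 were Klf4 (0.78), Dusp2 (0.70), Zfp36l2 (0.69) and Cd69 (0.52). Egr1, a zinc-finger factor commonly induced with Fos, was not called: it read 1659 and 1802, then 1531 and 1461, then 1330 and 1127, a replicate difference of 0.06 ± 0.08 (adjusted p 0.732). Of 10 heat shock genes tested, 3 were positive, and the only call was Hsph1, lower in replicate 1 (-0.47 ± 0.09, adjusted p 0.0303). The myeloid and dendritic markers summed lower in replicate 1 than in replicate 2 at each stage, with 0 of 6 called.

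**Figure D5:**
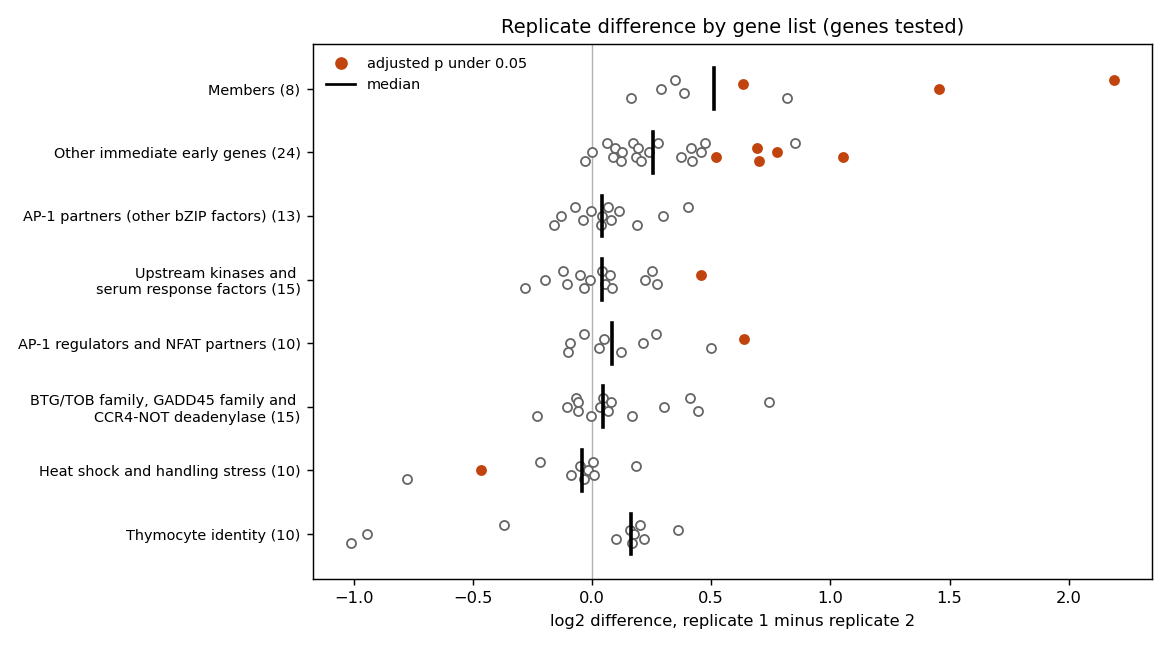
Log2 difference, replicate 1 minus replicate 2, averaged over stages (horizontal axis) of the members and of each gene list (vertical axis); each point is a gene, filled where the adjusted p is under 0.05, and the bar is the list's median. The 24 other immediate early genes have a median of 0.26 and the 10 heat shock genes one of -0.04.

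The same immediate early list changed in both directions among stages. In the counts of this and the later lists, rose and fell mean called higher and called lower. In the stage fit 4 of the 24 rose and 1 fell from DP to CD4intCD8+ cells, and 5 rose and 5 fell from DP to CD8SP cells. Beside this, 11.7% of all genes tested were called in the first comparison and 19.8% in the second. With the replicate number 6 rose and 4 fell, then 6 rose and 9 fell, against 23.5% and 30% of genes. Nr4a3, an orphan nuclear receptor induced by antigen receptor signals, rose by 2.39 ± 0.14 in log2 in the first step (adjusted p 0.0003), Myc by 1.44 ± 0.21 (adjusted p 0.0059) and Egr3 by 1.16 ± 0.20 (adjusted p 0.0093, lost without DP replicate 1 or 2 at 0.0661 and 0.0649). Nr4a1 rose by 0.79 ± 0.21 (adjusted p 0.0425, lost without DP replicate 2 at 0.208 or CD4intCD8+ replicate 1 at 0.125, and at 0.0512 to 0.0833 with no filter, the mean of probes, the probe-level fit or no intensity trend). From DP to CD8SP cells Egr1 fell by 0.50 (adjusted p 0.012, lost without DP replicate 2 or CD8SP replicate 2 at 0.0815 and 0.0877, and without the intensity trend at 0.0564). Egr2 fell by 0.53 (adjusted p 0.0359, lost without either DP array or CD8SP replicate 2 at 0.106 to 0.209, and at 0.0514 to 0.0687 in the probe-level fit, without the intensity trend or with the actin covariate). Dusp1, whose replicates differ, was 0.61 lower in CD4intCD8+ than in DP cells with an adjusted p of 0.416 by stage alone, and 0.0139 with the replicate number. Cd69, a surface marker of recent receptor signals, had a log2 change of 0.10 ± 0.24 (adjusted p 0.835).

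Among the 13 tested leucine-zipper partners of AP-1, 1 rose and 1 fell from DP to CD4intCD8+, and 3 rose and 1 fell from DP to CD8SP. In these comparisons 11.7% and 19.8% of all genes tested were called (23.5% and 30% with the replicate number). With the replicate number 3 rose in the first step (Batf, Bach2 and Crem), and Bach1 was called lower in the second (adjusted p 0.0274). Bach1, a repressor that dimerizes with small Maf proteins, read 673 and 687 in DP cells, 331 and 330 at the intermediate stage and 224 and 223 in CD8SP cells, with the arrays of a stage almost equal. From DP to CD8SP cells it fell by 1.58 ± 0.12 (adjusted p 0.0001). In the first step it fell by 1.03 ± 0.12 (adjusted p 0.0023), a call that was lost when all its probes were averaged (adjusted p 0.16). Batf, a Jun partner in lymphocytes, rose by 0.79 ± 0.15 from DP to CD8SP (adjusted p 0.0069, lost without DP replicate 1 at 0.057), and Bach2 by 0.63 ± 0.19 (adjusted p 0.0422, lost without either DP array or CD8SP replicate 1 at 0.128 to 0.197). The Bach2 call was also lost, at 0.0529 to 0.0674, with no filter, either other scaling, the probe-level fit or no intensity trend, and the mean of its probes changed by 0.28 (adjusted p 0.347). In the first step Batf rose by 0.58 ± 0.15 (adjusted p 0.0401), a call lost in 12 alternatives. No partner was called by replicate number.

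Of 15 tested kinases and serum response factors upstream of Fos and Jun, 0 were called from DP to CD4intCD8+ (4 at an unadjusted p under 0.05) and 2 fell from DP to CD8SP: Map2k6, an activator of p38, by 0.93 ± 0.16 (adjusted p 0.0051, lost without DP replicate 2 at 0.0521) and Map3k1, an activator of the JNK cascade, by 0.81 ± 0.23 (adjusted p 0.0354, lost without either DP array or CD8SP replicate 2 at 0.0552 to 0.22, and at 0.053 and 0.062 in the probe-level fit and without the intensity trend). With the replicate number 3 were called in the first step (Map3k1, adjusted p 0.0021, and Map2k6, 0.0197, lower and Rps6ka3, 0.027, higher) and 4 over the span (Map3k4 and Rps6ka3 higher). Shares of all genes called in these comparisons were 11.7% and 19.8% by stage, and 23.5% and 30% with the replicate number. Of 10 tested AP-1 regulators and NFAT partners, 1 rose and 1 fell in the first step and 3 rose and 1 fell over the span; with the replicate number 1 rose and 2 fell, then 4 rose and 3 fell. Nfatc2 rose by 1.04 ± 0.16 over the span (adjusted p 0.0023), a call kept under every alternative run. The other span calls in the stage fit were Ppp3ca (0.84 higher, adjusted p 0.0488), Nfatc1 (0.56 higher, 0.0402) and Nfatc3 (0.41 lower, 0.0402). Each of these was lost in 8 of the alternatives. Cops5, which stabilizes Jun, rose by 0.57 ± 0.12 in the first step (adjusted p 0.0165), and Nfatc3 fell by 0.55 ± 0.12 (adjusted p 0.0207). Cops5 was lost without either DP array or CD4intCD8+ replicate 2 (0.0762 to 0.1005), with the mean of its probes (0.131) or with the actin covariate (0.122), and Nfatc3 whichever of the 4 arrays compared was left out (0.0534 to 0.102) or without the intensity trend (0.052).

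Of 15 tested relatives and partners of Btg2 and Gadd45b, 1 rose and 2 fell from DP to CD4intCD8+, against 11.7% of all genes called. From DP to CD8SP 1 rose and 4 fell, against 19.8%. With the replicate number these were 1 and 5, then 1 and 8, against 23.5% and 30% of genes. Tob2, a family relative of Btg2, fell by 0.73 ± 0.15 from DP to CD8SP cells (adjusted p 0.009, lost without DP replicate 1 or CD8SP replicate 2 at 0.0715 and 0.0647; the mean of its probes fell by 0.40, adjusted p 0.134). Cnot8, a deadenylase subunit bound by the family, fell by 0.76 ± 0.13 (adjusted p 0.0037). Gadd45a, a paralog of Gadd45b, fell by 1.11 ± 0.24 (adjusted p 0.0123, lost without DP replicate 1 or CD8SP replicate 2 at 0.106 and 0.078), while Gadd45b was 0.40 ± 0.35 higher (adjusted p 0.466). Cnot9, a further subunit, rose by 0.48 ± 0.14 (adjusted p 0.0414, lost whichever of the 4 arrays compared was left out, at 0.0577 to 0.216, and at 0.0501 to 0.0784 in 5 other alternatives).

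Of the 10 heat shock genes, 2 rose and 0 fell from DP to CD4intCD8+, against 11.7% of all genes called. From DP to CD8SP 3 rose and 1 fell, against 19.8%. With the replicate number 4 rose and 1 fell, then 5 rose and 2 fell, against 23.5% and 30% of genes. Hspe1, a mitochondrial co-chaperone, rose by 0.95 ± 0.13 from DP to CD8SP (adjusted p 0.0013), and Hspa5, the chaperone of the endoplasmic reticulum, by 0.74 ± 0.12 (adjusted p 0.0038). The part of this in the members' values was not tested.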

How the data were processed

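The authors deposited 1 linear intensity per probe and array; the software and scaling were not given in the sources used here. Of the non-control probes' values, 9720 (3.60%) lay below 0, as can happen when a background is subtracted, but those sources do not state such a step. Of 45037 non-control probes, 34945 had 1 gene symbol in the platform annotation, 932 several and 9160 none. Negative values were set to 0, 5.84 (the 10th percentile of positive values) was added, and log2 was taken of the deposited intensities; log2 changes are on this scale and understate the change of dim genes. Of a gene's probes, the one with the highest mean stood for it, genes under the 40th percentile were left out, and 10916 genes were fitted with limma 3.58.1 (lmFit, eBayes with intensity trend; R 4.3.3), with stage as the only term and Benjamini-Hochberg adjustment over all genes; an adjusted p under 0.05 was called. Probes were fitted likewise, over 27022 probes. Values after ± are SE unless marked SD. Only 2 arrays per stage limit the precision. Probe levels were compared only to choose that probe.

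Arrays of the same replicate number deviated together (correlation across genes after removing stage means 0.26, 0.21 and 0.30), and the labels name 2 independent experiments, so the numbers were taken to pair the arrays and a fit with that number as a block was run. The scripts were tested on simulated data. Members, the 12 gene lists (160 genes, 138 on the array) and tests were chosen with earlier results of these data known. Named genes are the members, from each list the up to 3 called genes that changed most, and Egr1, Egr2, Nr4a1, Cd69 and Dusp1; any other gene was named after its values were known. Of the lists, the natural killer and gamma delta T cell and erythroid markers had 0 calls by stage (Alas2, an erythroid marker, 1 with the block, adjusted p 0.0398), the epithelial and stromal markers 1 (Pecam1, lower in CD8SP than in DP cells) and the B cell markers 1 (Cd79b, higher in CD8SP than in DP cells). Pecam1 and Cd79b lost their calls whichever of the 4 arrays compared was left out (adjusted p 0.0539 to 0.252 and 0.0552 to 0.0782), and Pecam1 also with no filter, in the probe-level fit or without the trend (0.0558 to 0.0623); the block also called Pecam1 lower in CD4intCD8+ cells (0.0238). Alternatives changed the added constant (1 and 25), the filter (none, 60th percentile), the scaling, the probe rule, the variance trend, the arrays, the block and an actin ratio covariate; no scaling moved the median of all genes by more than 0.04.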

Additional observations from a re-analysis of the deposited data

How the results depend on the processing

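From DP to CD4intCD8+, 2 members were called, Btg2 and Jund. The number became 1 without the intensity trend (Btg2), 4 with the replicate block and 0 once the actin ratio entered the fit. The mean of all probes gave 2, with Fosl2 in place of Jund. Of the Fosl2 probes, 1437247_at, which lay around 0 in DP cells, was called and 1422931_at was not. The Fosl2 call is therefore no independent support, here or from DP to CD8SP. Neither Btg2 nor Jund kept its call when either DP array was left out. Without DP replicate 1 the call was Gadd45b instead. Without CD4intCD8+ replicate 2 Jund lost its call, and without CD4intCD8+ replicate 1 Btg1 gained one. From DP to CD8SP, 1 was called: 2 with the mean of all probes (Btg2 and Fosl2), 2 with the replicate block, and 1 to 2 when an array was left out. Over any stage, 2 were called: 1 with no filter, quantile normalization, the probe-level fit, no intensity trend or the actin covariate, and 0 to 2 when an array was left out (0 without DP replicate 2). From CD4intCD8+ to CD8SP 0 were called under every alternative run. By replicate number (added after seeing the data) 3 were called: 0 without the intensity trend and 1 to 5 when an array was left out, 5 without either DP array and 1 without either CD8SP array. For calls by replicate number, leaving out either array of a stage is the same check, because the array left over is fitted by its own stage term. Jund turned direction in the first step, to a log2 change of 0.023 (adjusted p 0.95), when its probes, which disagree, were averaged. For the members' comparisons of 2 stages the replicate block changed only the calls given with its counts; among the gene lists it added calls, which stand beside each list, and 1 in the second step among other immediate early genes (Sgk1, 0.82, adjusted p 0.03). Where no cause is named, the cause was not tested. Low signal limits Fosb, and Fosl2 1437247_at in DP cells, where it lies around 0. Groups of 2 arrays are too small to test for outlying samples.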
